A study of Homo sapiens with 6 samples.

Results

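Genes for the proteins of the cytosolic ribosome were followed at the mRNA level in Hep3B, a human hepatoma line, with and without silencing of SDHB, which encodes an iron-sulfur protein of mitochondrial complex II. The genes were chosen by symbol: RPL, RPS or RPLP, then a number, then an optional A, L, X or Y, without pseudogenes and without the RPS6K kinases. Of 80 protein-coding genes with such a symbol in the RefSeq gene table, 56 had a probe set that names them alone and 55 of these were bright enough to be tested, out of 13781 genes tested in all. Each gene was represented by the brightest of the probe sets that name it alone. A further 15 genes were named only by probe sets that also carry another symbol, 9 were named by no probe set, and the probe set of RPL3L, a paralog of RPL3, lay below the filter on dim signals.

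The study compared 2 groups of 3 Affymetrix HG-U133 Plus 2.0 arrays, called A, B and C in each. The control was clone 2 of cells carrying plasmid pU6 (pU6-2), and the other was clone D20, stably silenced with SDHB-specific siRNA. Both clones were grown under G418 until nearly confluent. Each group is 1 clone, with no label naming separate cultures for its arrays, so the p-values measure only the spread between these arrays, and an effect of the silencing cannot be told apart from a difference between clones. Nor can a lower signal in every cell be told apart from one in some of the cells.

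A cytosolic ribosome consists of a small subunit, which reads the mRNA, and a large subunit, which joins amino acids and holds the exit tunnel of the growing chain. Their proteins are made from single genes for the most part, in matched amounts, and are imported into the nucleolus, where they are assembled on ribosomal RNA. Most of their mRNAs begin with a 5′ terminal oligopyrimidine (TOP) stretch, a C followed by a run of C and U, through which mTORC1 and the RNA-binding protein LARP1 control their translation and stability. They rank among the most abundant mRNAs of growing cells such as hepatoma lines.

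That start was read from RefSeq promoter sequences of build GRCh38.p14, which matched 63 of the 80 genes and 48 of the 55 tested. A start was counted where a C within 5 bases of the annotated start was followed by at least 4 more C or T. Of the 63 genes 52 (82.5%) had such a start on the sense strand and 9 (14.3%) had one on the opposite strand, beside 25.2% and 23.2% of all 27305 genes of the table. The hexamer CTTTCC, which can lie inside that run, was searched from 20 bases before the start to 40 after it. It stood on the sense strand in 23 of the 63 genes (36.5%) and on the opposite strand in 1 (1.59%), beside 3.38% and 3.32% of all genes. Among the genes that fell in D20, 5 of the 7 with an entry had the run, and among the tested genes that were not called 35 of 41. The sequences below run from 15 bases before the annotated start through the first 25 transcribed bases, with the run in capitals. They are shown to set genes that fell beside genes that did not and beside paralogs.
Genes with a lower signal in D20 come first.
RPL35, chr9:124861933-124861972, minus strand: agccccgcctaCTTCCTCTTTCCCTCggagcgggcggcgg
RPL14, chr3:40457324-40457363, plus strand: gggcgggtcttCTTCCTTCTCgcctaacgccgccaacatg
RPL11, chr1:23691791-23691830, plus strand: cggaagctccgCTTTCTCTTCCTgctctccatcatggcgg
RPS9, chr19:54200843-54200882, plus strand: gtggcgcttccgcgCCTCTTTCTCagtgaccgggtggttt
RPL29, chr3:51995871-51995910, minus strand: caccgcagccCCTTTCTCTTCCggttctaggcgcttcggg
RPL27, chr17:42998404-42998443, plus strand: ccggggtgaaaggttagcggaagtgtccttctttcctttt
RPL6, chr12:112411418-112411457, minus strand: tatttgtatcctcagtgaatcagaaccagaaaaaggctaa
Genes that were not called, with values above 0, follow.
RPL3, chr22:39319599-39319638, minus strand: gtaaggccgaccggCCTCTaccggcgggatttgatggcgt
RPS18, chr6:33272060-33272099, plus strand: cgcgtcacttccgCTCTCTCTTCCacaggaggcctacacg
RPS3, chr11:75399503-75399542, plus strand: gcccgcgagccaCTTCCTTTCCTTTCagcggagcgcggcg
RPL35A, chr3:197950175-197950214, plus strand: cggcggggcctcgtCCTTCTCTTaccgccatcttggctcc
The next are RPS27 and its paralog RPS27L, and then FAU and RPL22L1, genes outside the symbol rule.
RPS27, chr1:153990747-153990786, plus strand: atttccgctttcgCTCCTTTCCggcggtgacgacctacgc
RPS27L, chr15:63157453-63157492, minus strand: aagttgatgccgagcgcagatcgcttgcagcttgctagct
FAU, chr11:65122110-65122149, minus strand: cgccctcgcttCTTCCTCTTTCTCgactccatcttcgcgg
RPL22L1, chr3:170870171-170870210, minus strand: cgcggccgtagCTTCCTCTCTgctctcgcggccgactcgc
RPL11 has 2 annotated starts, both with such a run, and 1 is shown. The start of RPL27 has no run within the 5 bases, and a stretch of C and T stands in the last bases shown. RPL6, which also fell, has no run at the start shown either. RPS27L has none in the window. Long runs stood at the start of genes that fell, such as RPL35 with 15 bases, and of genes that were not called, such as RPS3 with 14.

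The probe sets of these genes were among the brightest on the arrays. The representing probe set of 48 of the 55 genes lay above the 99th percentile of all probe sets tested, a signal of 17103, and 47 had a signal above 20000. The lowest signals belonged to RPL10L, RPLP2 and RPL36A, all under 1000, and the highest to RPS10, with 53069, 55252 and 54431 on the pU6-2 arrays A, B and C and 47459, 65257 and 58801 on the D20 arrays. A probe set's signal depends on its sequence as well as on the mRNA, so these levels do not rank the genes. RPLP2 had a dim probe set although its protein is as integral to the ribosome as that of RPLP1. The probe set of RPLP1 reached 30054, 33532 and 29678 against 27285, 38393 and 30475. Probe sets that also carry another symbol could not represent a gene, so a dim value need not be the gene's brightest on the array.

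**Figure D1:**
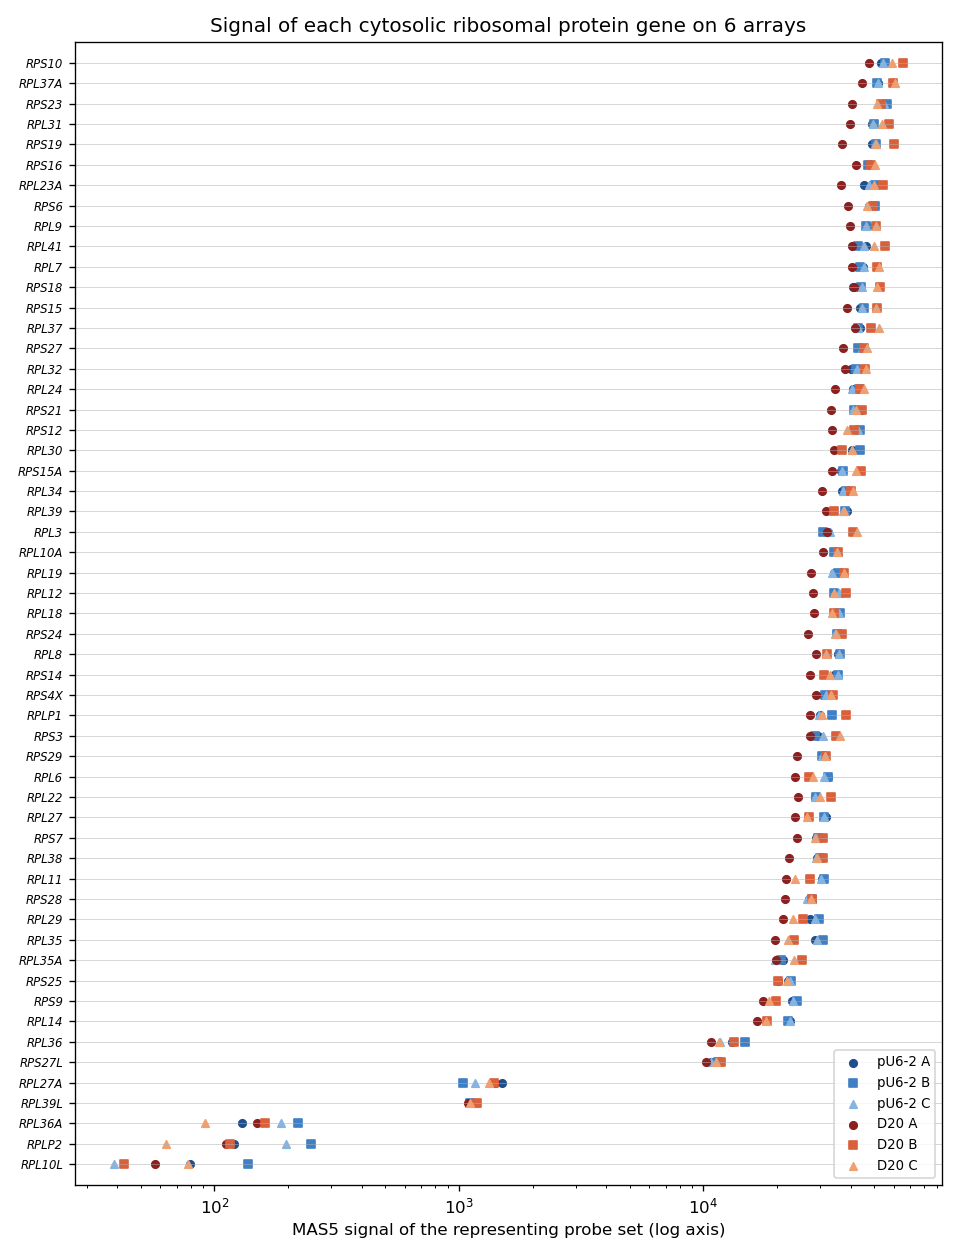
MAS5 signal (log axis) of the representing probe set of each of the 55 genes, ordered by mean, with 1 point for each of 6 arrays (blue pU6-2, red to orange D20). 50 genes form a block above a signal of 10000, in which array D20 A is mostly the leftmost point.

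One array stood apart at these high signals. The median signal over the 55 genes was 34586, 35075 and 35542 on the pU6-2 arrays, and 28287, 35523 and 34927 on D20 arrays A, B and C. D20 A was the lowest of all 6 arrays for 48 genes and the lowest of the D20 arrays for 51. The deviation of D20 A from the mean of its clone varied with level. Over all probe sets tested it had a median of 0.0032 (log2) at signals of 1000 to 10000, -0.061 at 10000 to 20000, -0.14 at 20000 to 30000, -0.18 at 30000 to 40000 and -0.25 above 40000. The corresponding medians of D20 B rose to 0.15 and those of the pU6-2 arrays stayed between -0.029 and 0.021 in the bins above 10000. Counts and calls that rest on D20 A are therefore given with and without it. Whether the detector or the probes were saturated was not tested, since the deposited values hold no scanner flags.

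**Figure D2:**
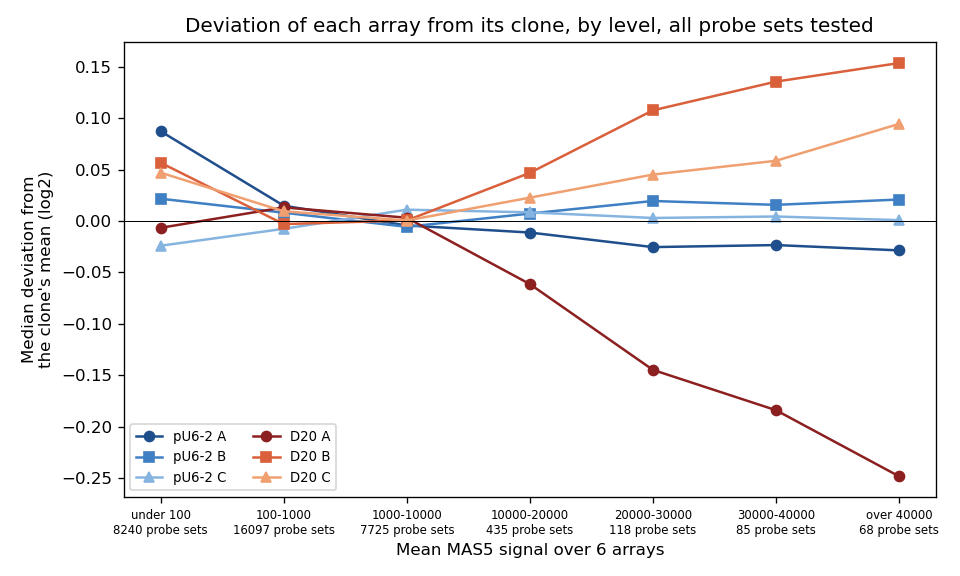
Median deviation of each array from the mean of its clone (log2) in 7 bins of mean signal, over all 32768 probe sets tested. D20 A falls to -0.25 above a signal of 40000 while D20 B rises to 0.15.

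As a family, these genes differed little in signal between the clones, and whether bright signals were compressed was not tested. Of 55 genes, 0 were called higher and 8 lower (14.5%) at an adjusted p under 0.05, beside 19.5% and 17.0% of all probe sets tested, or 36.5% either way. The median log2 fold change, D20 over pU6-2, was -0.053 over the 55 genes and 0.028 over all probe sets. Values lay within 0.2 of 0 for 41 genes (74.5%), against 24.99% of all probe sets, and 0 genes differed at least 2-fold, against 17.6%. At an unadjusted p under 0.05, 1 gene was higher and 12 were lower. The arrays of the clones did not overlap for 14 genes, all with D20 below (25.5%), and for 0 with D20 above, beside 22.1% and 25.1% of all probe sets. The share of genes called lower thus lay near that of the array as a whole. The differences of the 55 genes had an SD of 0.19, against 0.89 over all probe sets. The median SE of a gene's difference was 0.096, and the smallest difference called was -0.22.

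Bright probe sets of all kinds were less spread than dim ones. Among the 328 brightest 1% of probe sets the SD was 0.40, and 16.2% were called higher and 18.0% lower. The 219 of them that name no ribosomal protein gene of the rule had an SD of 0.47 and ran from -2.37 to 1.43, with 23.3% higher and 18.7% lower. A probe set enters here by its mean over both clones and can be dimmer in one of them. At signals of 30000 to 40000, where 15 of the 55 genes lay, the SD of all 85 probe sets was 0.23. Of these 4.71% were called higher and 12.9% lower. Above a signal of 40000, where 19 of the 55 genes lay, the SD of all 68 probe sets was 0.19, and 16.2% were called higher and 4.41% lower. These 85 and 68 include the ribosomal protein probe sets, and their spread without them was not computed.

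**Figure D3:**
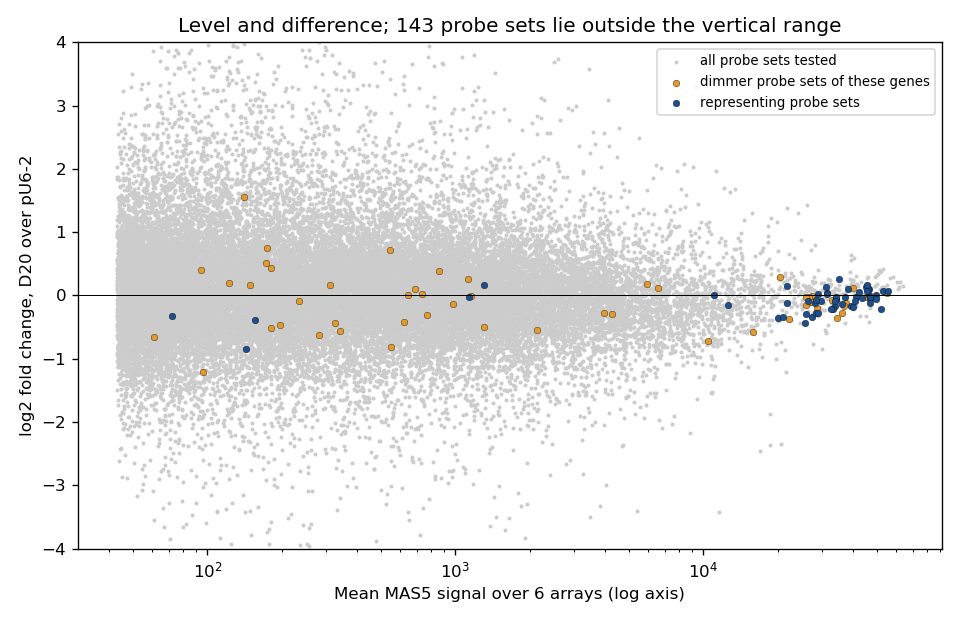
Mean signal over 6 arrays (log axis) against log2 fold change for all probe sets tested (grey; 143 lie beyond 4 in either direction), the 55 representing probe sets (blue) and 52 dimmer probe sets of the same genes (orange). The bright block sits within 0.44 of 0 while grey points at the same mean signals reach further.

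The counts depended on array D20 A, on the scaling and on the variance model. Without D20 A, 14 genes were called higher and 8 lower, the latter being the same 8 genes, beside 17.0% and 15.8% of all probe sets; the median over the 55 genes was then 0.045 and over all probe sets 0.040. Over all probe sets at signals of 20000 to 30000, 30000 to 40000 and above 40000 that median was 0.10, 0.094 and 0.23. With quantile normalization, which gives every array the same distribution, 2 were higher (RPL3 and RPS3) and 17 lower, the 8 among them, beside 17.7% and 18.5%. Scaling to the poly-A spike-in controls turned the counts to 11 higher and 0 lower, beside 29.4% and 9.45% of all probe sets. Those 2 shares stand beside every later count under spike-in scaling. This scaling also moved the median of all probe sets to 0.27 and the share of higher among all calls from 53.5% to 75.7%. Relative to the median of all probe sets, the genes' median was -0.065 there and -0.081 without scaling. Centring each array on its median gave 0 higher and 18 lower, beside 15.2% and 21% of all probe sets, with 42.0% of all calls higher. Without a trend of variance on level only RPL35 was called lower and 0 genes higher, beside 5253 probe sets called higher and 4356 lower of all those tested.

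**Figure D4:**
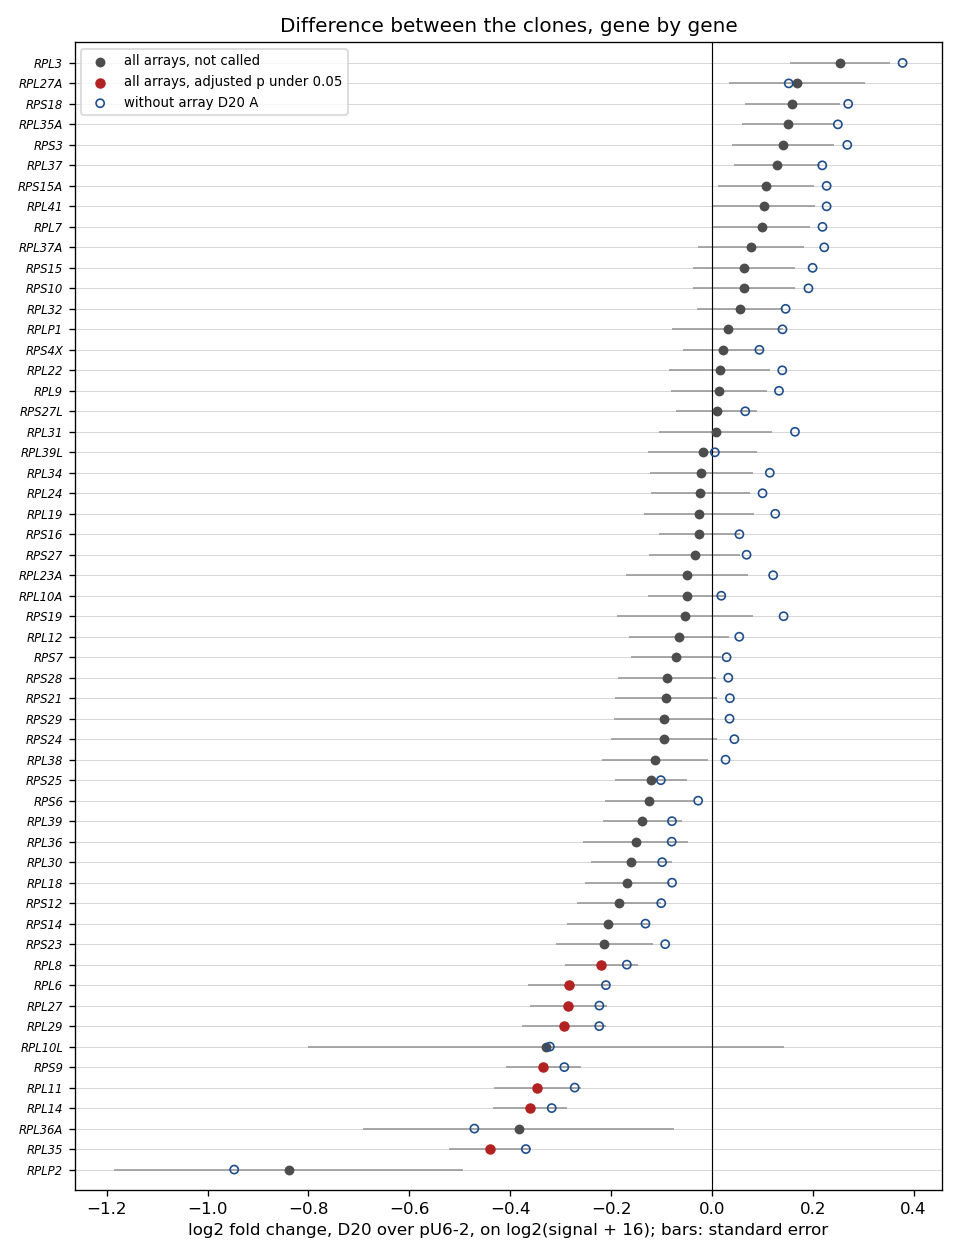
Log2 fold change, D20 over pU6-2, of the 55 genes with standard errors (filled; red where the adjusted p is under 0.05) and the same without array D20 A (open). The open points lie to the right of the filled ones for nearly all bright genes, and the 8 red genes stay below 0 in both.

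The 8 lower genes were 7 of 34 of the large subunit and stalk and 1 of 21 of the small subunit; whether the subunits differ was not tested. RPL35, a large-subunit protein near the exit of the tunnel, had the strongest fall, with 28643, 30751 and 29170.1 on the pU6-2 arrays A, B and C and 19704, 23498 and 22215 on the D20 arrays. All D20 arrays lay below all pU6-2 arrays (log2 fold change -0.44, SE 0.082, adjusted p = 0.000912). RPL14, also of the large subunit, had 22691, 22249.8 and 22688 on the pU6-2 arrays A, B and C and 16528, 18211 and 17960.2 on the D20 arrays, again without overlap (log2 fold change -0.36, SE 0.073, adjusted p = 0.00165). Its second probe set, at 19447, 18685 and 18832 against 12115, 13428 and 12759, fell further (log2 fold change -0.57, adjusted p = 4.80e-05), and the dimmest, at 366.2, 331.6 and 305.2 against 345.3, 128.1 and 210.2, overlapped between clones and was not called (log2 fold change -0.62, adjusted p = 0.121). RPS9, a small-subunit protein that binds ribosomal RNA early in assembly, was the only small-subunit gene called, with 23042, 24028 and 23205 on the pU6-2 arrays A, B and C and 17519, 19802 and 18459 on the D20 arrays (log2 fold change -0.33, SE 0.075, adjusted p = 0.00334). Its second probe set fell more steeply, from 13859.5, 11942 and 13059 to 6946, 8010.2 and 8708 (log2 fold change -0.72, adjusted p = 6.46e-05).

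RPL29 had 27272, 29694 and 28659 on the pU6-2 arrays A, B and C and 21133, 25575 and 23338 on the D20 arrays (log2 fold change -0.29, SE 0.083, adjusted p = 0.0146), and its second probe set also fell (log2 fold change -0.38). RPL27 had 31680.2, 31121 and 31276 on the pU6-2 arrays A, B and C and 23632, 27080.3 and 26647 on the D20 arrays (log2 fold change -0.28, SE 0.076, adjusted p = 0.0101). RPL6 had 32275, 32311 and 31065 on the pU6-2 arrays A, B and C and 23639, 26988 and 28134 on the D20 arrays (log2 fold change -0.28, SE 0.080, adjusted p = 0.0141). These are large-subunit proteins, and in each the highest D20 array stayed below the lowest pU6-2 array. RPL8, which lies close to the peptidyl transferase centre, had the smallest called difference, with 35497, 36293 and 35936 on the pU6-2 arrays A, B and C and 28765, 32092 and 31796 on the D20 arrays (log2 fold change -0.22, SE 0.073, adjusted p = 0.0323). Leaving out each array in turn kept RPL35, RPL14, RPL11, RPS9 and RPL27 called in 6 of 6 fits, RPL29 and RPL6 in 4 and RPL8 in 2; RPL29 was lost without pU6-2 B or C, RPL6 without pU6-2 A or B, and RPL8 without any pU6-2 array or D20 C. The highest adjusted p was 0.0629 for RPL29, 0.0575 for RPL6 and 0.114 for RPL8. Under spike-in scaling RPL8 came to a log2 fold change of 0.040 and all 8 calls were lost.

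RPL11 belongs to the 5S ribonucleoprotein (5S RNP), which it forms with RPL5 and 5S ribosomal RNA and which, when not built into ribosomes, binds the p53 inhibitor MDM2. Its signals were 30591, 31235 and 30139 on the pU6-2 arrays A, B and C and 21738, 27249 and 23643 on the D20 arrays (log2 fold change -0.35, SE 0.087, adjusted p = 0.00682). RPL5 had no probe set of its own. Of the factors that carry this particle, HEATR3, which accompanies RPL5 to the nucleus, fell most, from 1999, 2082 and 1920.0 to 996.3, 1194 and 995.3 (log2 fold change -0.91, adjusted p = 3.12e-05). RPF2, which docks the particle on the large subunit precursor, went from 5582, 5041 and 5741 to 4403, 3869.6 and 3986 (log2 fold change -0.42, adjusted p = 0.00259). Its partner RRS1 (978, 1475 and 1025 against 813.9, 1169 and 1036; log2 fold change -0.19) and BRIX1 (902.4, 871.8 and 876.1 against 898.7, 514.2 and 884.2; log2 fold change -0.25) overlapped between clones and were not called. Of the 5 tested genes of this list, 3 were lower and 0 higher, and under spike-in scaling 1 was lower (HEATR3). Of all probe sets tested 17.0% were lower and 19.5% higher. At signals of 1000 to 10000, where the median of this list lies, the shares were 31.9% and 26.7%.

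The P stalk, a lateral arm that recruits the translational GTPases, is formed by RPLP0, RPLP1 and RPLP2 on RPL12. RPLP1 had 0.031 (log2 fold change, adjusted p = 0.858) and RPL12, at 34586, 34059 and 35775 against 28173, 38300.0 and 34094, had -0.065 (adjusted p = 0.657); in both genes the clones overlapped. The RPLP2 probe set gave 119.9, 248 and 196.8 on the pU6-2 arrays A, B and C and 111.8, 115.7 and 63.2 on the D20 arrays, with no overlap (log2 fold change -0.84, SE 0.35, adjusted p = 0.0769), at signals far below those of the other stalk genes. A second RPLP2 probe set, at 155.5, 167.3 and 97.4 against 33.7, 72.9 and 50.1, was called lower (log2 fold change -1.20, adjusted p = 0.029) but not without D20 A (adjusted p = 0.0771).

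No gene passed the threshold upwards on all arrays, and the highest values belonged to RPL3, RPL27A, RPS18, RPL35A and RPS3. RPL3, which reaches towards the peptidyl transferase centre and joins the large subunit early, had 32272, 30856 and 33019 on the pU6-2 arrays A, B and C and 32110.5, 40784 and 42516 on the D20 arrays. D20 B and C lay above every pU6-2 array while D20 A lay among them (log2 fold change 0.25, SE 0.099, adjusted p = 0.0635). Without D20 A it was higher (log2 fold change 0.38, adjusted p = 0.000274), as it was with quantile normalization (log2 fold change 0.27, adjusted p = 0.00115). RPS3, at the mRNA entry of the small subunit, had 29487, 28544 and 30734 on the pU6-2 arrays A, B and C and 27333, 34982 and 36282 on the D20 arrays, with D20 A the lowest of the 6 (log2 fold change 0.14, adjusted p = 0.307; without D20 A, log2 fold change 0.27, adjusted p = 0.00307). RPS18, a protein of the small-subunit head, had 41007, 44006 and 44532 on the pU6-2 arrays A, B and C and 41291, 52690.0 and 51414 on the D20 arrays (log2 fold change 0.16, adjusted p = 0.217; without D20 A, log2 fold change 0.27, adjusted p = 0.00226). The other 11 genes higher without D20 A were RPL31, RPL32, RPL35A, RPL37, RPL37A, RPL41, RPL7, RPL9, RPS10, RPS15 and RPS15A, at 0.13 to 0.25. All probe sets above a signal of 20000 then had medians of 0.094 to 0.23 by bin of signal. A difference of these genes from other probe sets of like signal was not tested. RPL27A, by contrast, was represented by a probe set of moderate signal, 1507, 1043 and 1159.7 against 1408, 1387 and 1333, whose clones overlapped (log2 fold change 0.17, adjusted p = 0.365).

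Genes just outside the threshold included RPS23, of the decoding centre of the small subunit, at 55829, 56111 and 54763 on the pU6-2 arrays A, B and C and 40529, 53136 and 51106 on the D20 arrays, which did not overlap (log2 fold change -0.21, SE 0.096, adjusted p = 0.104). RPS14 had 34054, 35436 and 35542 against 27354, 31127 and 32793 (log2 fold change -0.21, adjusted p = 0.0641). RPS12 and RPL18 likewise separated the clones without a call, with log2 fold changes of -0.18 and -0.17. RPS6, the substrate of the S6 kinases, had 47516, 50118 and 48965 on the pU6-2 arrays A, B and C and 39184, 49231 and 46686 on the D20 arrays, with overlap (log2 fold change -0.12, adjusted p = 0.306), yet both dimmer probe sets of the gene were lower, one at 38914, 38802 and 38853 against 27000.1, 31591 and 32400.0 (log2 fold change -0.36, adjusted p = 0.00356) and one at 38236, 40030.3 and 40506 against 28959, 34933 and 34318 (log2 fold change -0.28, adjusted p = 0.0196). The probe sets of RPS6 thus differed in call but not in direction.

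RPS10 was the clearest case of probe sets that disagree. Its bright probe set was not called (log2 fold change 0.063, adjusted p = 0.673), while a dim one fell from 888.5, 586.1 and 654.3 to 326.5, 478.4 and 382.5 (log2 fold change -0.81, adjusted p = 0.00495). For RPS29 a very dim probe set rose from 70.4, 21.1 and 122.6 to 176.1, 244.5 and 208.3 (log2 fold change 1.55, adjusted p = 0.0137) although the bright one had -0.095, and for RPS28 a dim one rose from 436, 347.6 and 430.9 to 902.9, 603.3 and 552 (log2 fold change 0.71, adjusted p = 0.0114) beside -0.089. The call for RPS28 was lost without D20 A (adjusted p = 0.0614). Altogether 31 of the genes had 52 further tested probe sets, of which 3 were higher, all under a signal of 1000, and 10 lower. That is 25% either way, beside 36.5% of all probe sets. Of these 3 rises only that of RPS29 was called without D20 A, the third being of RPL37 (adjusted p = 0.0889). Their median was -0.087. At signals of 1000 or more, 0 of 27 were higher and 7 lower, the median being -0.11. Without D20 A those 7 stayed lower, while probe sets of RPL35A (0.44), RPS16 (0.26) and RPS10 (0.17, log2 fold changes) were called higher. On all arrays no gene had probe sets called in opposite directions. Without D20 A, RPS10 did, its bright probe set being higher (log2 fold change 0.19, adjusted p = 0.0176) and the dim one lower (-0.69, adjusted p = 0.0264). So did RPL37A, with 0.22 (adjusted p = 0.00245) for the bright probe set and -0.62 (adjusted p = 0.0114) for a dimmer one. Of the 55 representing probe sets, 43 are marked by the manufacturer as able to match several transcripts of a family or more, and among the 27 genes with an unmarked probe set 1 was higher and 5 lower.

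The probe sets that name one of these genes together with another symbol, often a small nucleolar RNA lodged in an intron, give a view of the genes that could not be named. Of 64 such probe sets 61 were tested, 4 were higher and 10 lower, and their median was -0.0063. Calls either way came to 23.0%, beside 36.5% of all probe sets. Without D20 A, 19 were higher and 9 lower, beside 17.0% and 15.8% of all probe sets. Their median signal was 29799, and all probe sets at signals of 20000 to 30000 had a median log2 fold change of 0.10 without D20 A.

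Paralogs with an L suffix are retained copies, some tied to particular tissues. RPL39L, known from testis and from some tumours, had 1142, 1114 and 1176 on the pU6-2 arrays A, B and C and 1092, 1187 and 1111 on the D20 arrays, while its parent RPL39 had 38522, 37806 and 37374 on the pU6-2 arrays A, B and C and 31715, 34225 and 37600.3 on the D20 arrays. Neither was called (log2 fold change -0.018, adjusted p = 0.919 and log2 fold change -0.14, adjusted p = 0.196). RPS27L is known as a target of p53, which Hep3B is known to lack. It had 10779, 11464 and 10743 on the pU6-2 arrays A, B and C and 10223, 11807 and 11215 on the D20 arrays (log2 fold change 0.0094, adjusted p = 0.944), and its parent RPS27 had 44858, 42714 and 44333 against 37198, 45472 and 46749 (log2 fold change -0.034, adjusted p = 0.804). The arrays of RPS27L overlapped between clones, while CDKN1A, another p53 target, went from 21.6, 104.5 and 129.9 to 3769, 3939.8 and 3554 (log2 fold change 5.43, adjusted p = 1.85e-07). RPL10L, the testis copy of RPL10, had 79.3, 136.5 and 38.9 against 57.1, 42.5 and 78.2, signals near the lower limit whose clones overlapped, and RPL3L had 50.6, 11.9 and 13.8 against 9.1, 8.0 and 27.5, below the filter.

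Ribosomal protein genes and paralogs that the symbol rule leaves out were lower in D20. All 5 that could be tested were called lower and 0 higher, beside 31.9% and 26.7% of all probe sets at signals of 1000 to 10000. Without D20 A 4 were lower, without the variance trend 3 and under spike-in scaling 2 (FAU and RPL36AL). FAU, which encodes a ubiquitin-like protein fused to a small-subunit protein, had 26910.3, 29922 and 26713 on the pU6-2 arrays A, B and C and 12536, 15448 and 13747 on the D20 arrays, which is a 2-fold fall (log2 fold change -1.004, SE 0.089, adjusted p = 1.90e-06). RPL36AL, a copy of RPL36A, had 8574, 8438 and 8524 on the pU6-2 arrays A, B and C and 5184, 6135 and 5917 on the D20 arrays (log2 fold change -0.57, SE 0.084, adjusted p = 0.000158). RPL22L1, a paralog of RPL22, went from 5655, 6351 and 5773 to 4197, 4276 and 4486 (log2 fold change -0.45, adjusted p = 0.00084), whereas RPL22 had 28692, 28801 and 28507 against 24408, 33349 and 29903 (log2 fold change 0.016, adjusted p = 0.925). RPL26L1 fell from 4163, 4430.3 and 4291 to 3041, 3607 and 3504 (log2 fold change -0.35, adjusted p = 0.0096), and RPL7L1 from 11929.8, 11928 and 11399.9 to 9310.2, 10633 and 9966 (log2 fold change -0.24, adjusted p = 0.0294; without D20 A, log2 fold change -0.19, adjusted p = 0.0508). Under spike-in scaling RPL7L1 came to a log2 fold change of 0.020.

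Position along the chromosome was looked at through the 10 tested genes on either side, in the order of the RefSeq gene table. Over the 55 genes, the fold change and the median of the neighbours had a Pearson's r of 0.24 and a Spearman's rho of 0.14, given as a description since all points come from the same arrays. The neighbours of RPL35 had a median of -0.48, with 11 of 20 called lower and 3 higher. Those of the other 7 lower genes had medians between -0.13 and 0.29. The neighbours of FAU had a median of -0.94, with 14 of 20 lower and 0 higher. The part of these neighbourhoods in the falls of RPL35 and FAU was not tested.

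Genes of the machinery that makes ribosomes were called lower more often than higher. Their shares stand beside 17.0% lower and 19.5% higher of all probe sets, and beside 31.9% and 26.7% of those at signals of 1000 to 10000, where the median levels of these lists lie; a difference from other genes of like signal was not tested. Among 33 tested snoRNP and early processome genes, which modify and fold ribosomal RNA, 18 were lower and 1 higher, with a median of -0.36. NAT10, the acetyltransferase of 18S ribosomal RNA, went from 1639, 1888 and 1784 to 750.3, 811.2 and 537.1 (log2 fold change -1.34, adjusted p = 1.50e-05). RCL1, of the small-subunit processome, had 1119, 1415 and 1220.5 against 481.9, 556.8 and 719.6 (log2 fold change -1.09, adjusted p = 0.00014). RRP9, a protein of the U3 snoRNP, had 292.7, 274.6 and 279.8 against 173.8, 162.1 and 127.8 (log2 fold change -0.82, adjusted p = 0.0131). FBL, the methyltransferase fibrillarin, went from 14799, 14417 and 14636 to 8732, 9777 and 8520.2 (log2 fold change -0.70, adjusted p = 1.50e-05), at a signal not far below the bright ribosomal protein probe sets. Spike-in scaling left 5 lower and 2 higher in this list, and taking each gene's dimmest probe set 11 lower and 2 higher. The 20 genes around NAT10 had a median of -0.88, with 16 lower.

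Of 29 tested large subunit maturation genes 15 were lower and 3 higher (median -0.40), and of 16 for the small subunit 7 and 1 (median -0.17). With spike-in scaling these became 3 lower and 6 higher, and 2 and 3. By the dimmest probe set they were 8 and 3 (median -0.27), and 5 and 2. NIP7 went from 1519, 1632 and 1589 to 909.4, 567.7 and 660.5 (log2 fold change -1.16, adjusted p = 6.94e-05) and TEX10 from 2101, 1690.4 and 2101 to 907.7, 937.2 and 866.7 (log2 fold change -1.10, adjusted p = 1.00e-05). NOP16 had 1617, 1677 and 1858 against 750.6, 1027 and 885.1 (log2 fold change -0.95, adjusted p = 8.30e-05), while GNL2, a GTPase of large-subunit assembly, rose from 1429.8, 1183 and 1483 to 2457, 2371 and 2302 (log2 fold change 0.80, adjusted p = 8.26e-05). In the small-subunit list EMG1, a ribosomal RNA methyltransferase, fell from 5498, 5486 and 5173 to 2372, 2852 and 2404 (log2 fold change -1.08, adjusted p = 1.64e-06). TSR1 (-0.78), RIOK1 (-0.52) and PNO1 (-0.51, log2 fold changes) were lower too, though the dimmest probe set of TSR1 went the other way.

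RNA polymerase I and its factors, which transcribe the ribosomal RNA, had 6 of 15 lower and 2 higher (median -0.30; 2 and 3 with spike-in scaling). Averaged over all probe sets of a gene, 3 were lower and 3 higher and the median turned to 0.033, and by the dimmest probe set 2 were lower and 3 higher (median 0.029). RRN3, which brings the polymerase to the promoter, rose from 843.9, 622.1 and 936.7 to 1583, 1434 and 1394 (log2 fold change 0.88, adjusted p = 0.00044), as did POLR1C (log2 fold change 0.68, adjusted p = 0.000635), a subunit shared with RNA polymerase III. POLR1F fell (log2 fold change -0.62, adjusted p = 0.000653), and POLR1H fell by its brightest probe set (log2 fold change -0.57, adjusted p = 0.0003) and not by its dimmest. Without D20 A, 16 processome, 14 large-subunit, 6 small-subunit and 4 polymerase I genes were lower. Of 13 chaperones and importers of ribosomal proteins 6 were lower and 1 higher (2 and 3 with spike-in scaling, 3 and 0 without the variance trend, 4 and 3 by the dimmest probe set). HEATR3 led these, followed by NAP1L4 (-0.56), IPO4 (-0.48) and IPO7 (-0.44).

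**Figure D5:**
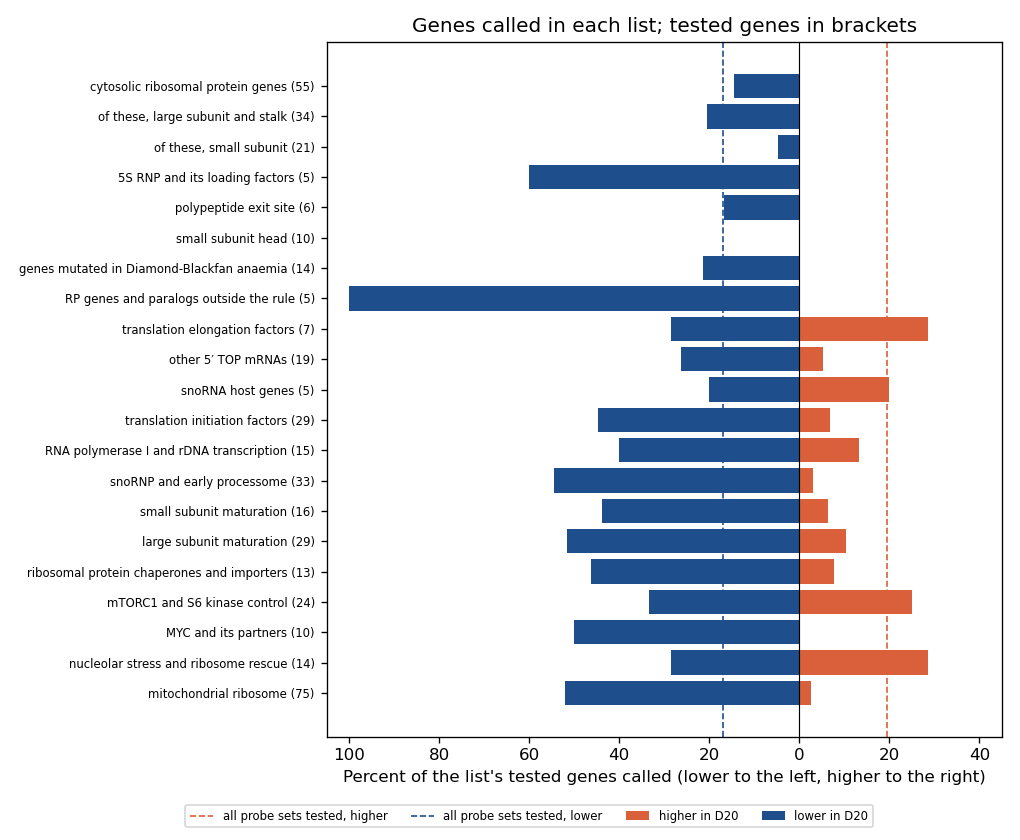
Share of tested genes called lower (left, blue) and higher (right, orange) in each list with at least 5 tested genes; the number tested stands in brackets and dashed lines mark 17.0% lower and 19.5% higher over all probe sets of every level (31.9% and 26.7% at signals of 1000 to 10000). The cytosolic ribosomal protein genes have no bar to the right, and the processome, large subunit maturation and mitochondrial lists reach 51.7% to 54.5% to the left.

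Other mRNAs with a TOP start, which share that element with ribosomal protein mRNAs, had 5 of 19 lower and 1 higher (median -0.099; 2 and 5 with spike-in scaling), beside 17.0% and 19.5% of all probe sets. Without D20 A, 4 were lower and 3 higher (median -0.013), and by the mean or the dimmest probe set 8 were lower and 1 higher. EIF3F fell from 18599, 18839.7 and 19349 to 9452, 10293 and 9941 (log2 fold change -0.94, adjusted p = 5.88e-07) and EIF4B from 9801, 10815 and 9898 to 5799, 6265 and 5752 (log2 fold change -0.77, adjusted p = 7.14e-06), both at bright signals. CCNG1 had -0.47 and IPO7 -0.44 (log2 fold changes). GAS5, a snoRNA host whose transcript also starts with a TOP run, fell from 687.9, 438.2 and 550.1 to 229.3, 171.6 and 317.9 (log2 fold change -1.19, adjusted p = 0.00161), while RC3H2 of the same list rose (log2 fold change 0.59, adjusted p = 0.00495). The list of 5 tested snoRNA hosts had 1 lower and 1 higher (1 and 2 with spike-in scaling).

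Among 29 tested initiation factors 13 were lower (44.8%) and 2 higher (6.9%), with a median of -0.27. At signals of 1000 to 10000, 31.9% of all probe sets were lower and 26.7% higher. The median signals of this list and of the elongation list lie there. A difference from other genes of like signal was not tested. Spike-in scaling made the counts 4 and 6, and the dimmest probe sets 5 and 1 (median -0.098). EIF2B1 went from 5156, 5484 and 5122 to 2682, 3049.9 and 2891 (log2 fold change -0.87, adjusted p = 5.34e-06), EIF3M had -0.80, EIF4G2 -0.62 and EIF2B4 -0.57. Of 7 elongation factors 2 were higher and 2 lower, 28.6% each (3 and 0 with spike-in scaling, 2 and 0 without the variance trend). EEF1A2, the isoform of muscle and neurons, rose from 169.2, 184 and 123.5 to 5491, 5214 and 4287 (log2 fold change 4.85, adjusted p = 2.94e-10). EIF5A2 rose as well (log2 fold change 1.61, adjusted p = 2.04e-05), and its widespread counterpart EIF5A fell (log2 fold change -0.41, adjusted p = 0.0131), as did EEF1D (log2 fold change -0.38, adjusted p = 0.00518).

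Genes of the mTORC1 and S6 kinase, MYC and nucleolar stress lists were called in both directions, as were probe sets at large. Of 24 mTORC1 and S6 kinase genes 6 were higher and 8 lower (33.3%), beside 19.5% and 17.0% of all probe sets and 22.0% and 15.8% of those at signals of 100 to 1000. The counts were 7 and 4 with spike-in scaling and 4 and 4 by the dimmest probe set. By their brightest probe sets MTOR was called higher (log2 fold change 0.82) and LARP1 lower (log2 fold change -0.80). RPS6KB2, which encodes S6 kinase 2, fell from 872.8, 1044 and 912.9 to 305.6, 259.2 and 291.8 (log2 fold change -1.67, adjusted p = 2.37e-06). RPS6KA5 rose from 193.3, 130.0 and 203.6 to 425.1, 519.4 and 494.5 (log2 fold change 1.39, adjusted p = 0.000246), RPS6KA1 rose (log2 fold change 0.95, adjusted p = 0.00233) and RPS6KA4 fell (log2 fold change -1.08, adjusted p = 0.0284). Of 10 MYC family and partner genes 5 were lower (50%) and 0 higher (3 and 2 with spike-in scaling). Of all probe sets at signals of 1000 to 10000, where the median of this list lies, 31.9% were lower and 26.7% higher. By the dimmest probe set 0 were lower and 2 higher (median -0.027), so the calls of this list rest on the choice of probe set. MYCN went from 585.5, 494.9 and 351.9 to 11.5, 6.6 and 47.7 (log2 fold change -3.83, adjusted p = 1.07e-05) and MYCL from 144.8, 118.6 and 161.7 to 39.7, 44.5 and 39.1 (log2 fold change -1.46, adjusted p = 0.00716). MXD1 fell (log2 fold change -0.62, adjusted p = 0.00438), and MGA fell by its brightest probe set (log2 fold change -0.84, adjusted p = 0.000103) and rose by another. Among 14 genes of nucleolar stress and ribosome rescue 4 were higher and 4 lower. That is 28.6% each, beside 26.7% higher and 31.9% lower of all probe sets at signals of 1000 to 10000. CDKN1A led the rises, while MDM2 (1606, 1702 and 1779 against 1119, 994.4 and 891.2; log2 fold change -0.76), MDM4 (-0.85) and ASCC2 (-0.82) fell.

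Genes mutated in Diamond-Blackfan anaemia, an inherited failure of red cell formation, had 3 of 14 lower (RPL11, RPL27 and RPL35) and 0 higher, with a median of -0.080, and 2 were higher and 0 lower under spike-in scaling. The share lower, 21.4%, lay near the 17.0% of all probe sets, of which 19.5% were higher. Without D20 A, 3 of the 14 were lower and 4 higher and their median was 0.040. The exit site had 1 of 6 lower (RPL35), or 16.7%, and the small-subunit head 0 of 10 in either direction. Without D20 A, 4 of those 10 head genes were higher. All probe sets then had 15.8% lower and 17.0% higher.

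The mitochondrial ribosome, whose proteins are encoded by a separate set of nuclear genes, had 39 of 75 lower (52.0%) and 2 higher, with a median of -0.29. Of all probe sets 17.0% were lower and 19.5% higher, and of those at signals of 1000 to 10000, 31.9% and 26.7%. Spike-in scaling made the counts of the list 18 and 10. They were 35 and 1 without D20 A and 28 and 0 without the variance trend. MRPL11 went from 5569.7, 5541 and 5257 to 1841, 2024 and 1608 (log2 fold change -1.58, adjusted p = 8.72e-08) and MRPL23 from 6422, 7399.5 and 6422 to 1983, 2766 and 2509 (log2 fold change -1.48, adjusted p = 7.38e-07), and MRPL21 and MRPL50 had -1.16 and -1.01. By the dimmest probe set 26 genes of the list were lower and 2 higher. Of the 20 tested genes around each, 11 were lower around MRPL11 (median -0.59), 11 around MRPL21 (-0.67), 9 around MRPL50 (-0.44) and 5 around MRPL23 (-0.079); the part of position in these differences was not tested. A difference between the 2 kinds of ribosome was not tested, and their probe sets differ in level, the median signal being 3001 for the mitochondrial list and 33886 for the cytosolic one.

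Cell identity markers moved with the clones. The 12 tested hepatocyte and hepatoma markers summed to 291748 to 300270 in pU6-2 and 154019 to 177461 in D20, with 8 lower and 2 higher. The fibroblast list summed to 1365 to 1529 and 860.5 to 1185, with 7 of 8 tested, 2 lower and COL3A1 below the filter. The blood list summed to 250.8 to 375.4 and 142.7 to 244.5, with CD3E and PTPRC below the filter and 0 of 2 tested genes called. The endothelial list summed to 112.1 to 176.7 and 255.8 to 341.9, with 1 of 5 tested (higher) and CDH5, KDR, TEK and VWF below the filter. The biliary list summed to 19527 to 20386 and 20919 to 23576, with 4 of 5 tested, 2 higher, 1 lower and CFTR below the filter. The part of these changes in the ribosomal protein values was not tested. Control ratios of 3′ over 5′ signal were 1.08 to 1.25 for GAPDH and 1.40 to 1.90 for ACTB over the 6 arrays.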

How the data were processed

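The values are those the authors deposited: for every array and probe set 1 linear intensity, made with MAS5 per the submitters' processing notes, whose version and scaling target the sources used here do not give. Per the labels' protocols, total RNA of cell pellets was labelled as biotinylated cRNA. The trimmed mean is about equal on all arrays and the median signal was 77.7 to 92.4. Precision is limited by the number of arrays.

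Probe sets were named by the platform annotation of GEO, brought up to date through Entrez identifiers to RefSeq symbols (GRCh38.p14): of 54675 probe sets, 41091 had 1 symbol and 1801 several, which were tested and not named. Signals were taken as log2(signal + 16), which understates fold changes of dim genes. The 62 control probe sets and the 40% with the lowest mean were left out (below a signal of 43.2). The remaining 32768 were compared with the lmFit and eBayes (trend on) functions of limma 3.58.1, run under R 4.3.3. Tests were two-sided at a threshold of 0.05, and p-values were adjusted by Benjamini-Hochberg over all 32768. The fit was tested on simulated data. No further normalization was applied.

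The genes, lists and tests were chosen with earlier results of these data known. Named were up to 12 rises and 12 falls among the genes called, the 5S RNP, the P stalk, L-suffix paralogs and their parents, the brightest and dimmest gene, ribosomal protein genes outside the rule, up to 4 called genes of each list, and genes whose probe sets disagree; others, such as RPS3, RPS18, RPS23 and RPS6, were named after their values were seen. Alternatives were other pseudocounts and filters, quantile, median, spike-in and cyclic loess scaling, no variance trend, a replicate block, each array left out, and other choices of probe set. The level of SDHB and the names of genes without a tested probe set are not reported here, apart from those the text mentions.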

Additional observations from a re-analysis of the deposited data

How the results depend on the processing

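Pseudocounts of 1 and 64 and the test without a filter on low values changed neither count by more than 1 gene. The count of cytosolic ribosomal protein genes higher in D20 (0) became 2 with quantile normalization, 11 with spike-in scaling, 2 where each gene's probe sets were averaged, 1 with its dimmest and 1 without probe sets marked as shared. The count lower (8) became 17 with quantile normalization, 18 with median centring, 0 with spike-in scaling, 1 without the variance trend, 5 without shared probe sets (27 genes left) and 0 without genes above the 99th percentile (7 left, none of them among the 8). Leaving out each array gave 0 to 14 higher, 5 to 10 lower and a median from -0.13 to 0.045; the median was 0.21 with spike-in scaling. Chosen after seeing the data, cyclic loess gave 9 higher, and quantile normalization without D20 A gave 2 higher and 16 lower. Over all probe sets tested, same-lettered arrays of the clones deviated with correlations of -0.021, 0.052 and 0.0074. These cover every level and cannot decide whether the letters pair arrays at bright signals. Above a signal of 40000 the median deviations of pU6-2 A, B and C were -0.029, 0.021 and 0.00087. Those of D20 A, B and C were -0.25, 0.15 and 0.094. With the replicate block 1 gene (RPL3) was higher and 9 lower, with a median of -0.053, beside 20.3% and 18% of all probe sets. Changes of direction were listed for 112 genes followed under every setting, where the main value or the other value was called. They were those of MGA (0.87 for its dimmest probe set and for its unshared one), POLR1H (0.087 for the mean of probe sets, 1.01 dimmest, 0.77 unshared), TSR1 (0.92 dimmest, 0.92 unshared), RPL37A (-0.28, mean), RPS10 (-0.11 quantile, -0.81 dimmest), RPS28 (0.46 mean, 0.71 unshared), RPS29 (0.73 mean, 1.55 dimmest), and, with spike-in scaling, RPL7L1 (0.020) and RPL8 (0.040). Values without a call changed sign as well and are not in that list. Of the 55 genes, 19 lay above 0 on all arrays and 35 without D20 A. Apart from what these settings construct, the cause was not tested. The dimmest probe sets, near the filter, set the limit on RPL10L, RPL36A and RPLP2.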
